A study of Zea mays with 18 samples.

Results

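Gibberellins are diterpenoid hormones that drive the elongation of grass internodes, and loss of their synthesis or of the response to them gives dwarf maize. Plastid diterpene cyclases turn geranylgeranyl diphosphate into ent-kaurene, cytochrome P450 enzymes oxidise it to the first gibberellin, and soluble 20-oxidases and 3-oxidases then make the active hormone. The receptor GID1 binds the active hormone and leads DELLA proteins, which restrain growth, to degradation, while 2-oxidases inactivate the hormone. The genes described here are 4 identifiers of the deposited table, grouped as gibberellin synthesis and DELLA dwarfing genes, out of 34474 genes in all. They were chosen with earlier results of these data known. They are an2 (Zm00001d029648), an ent-copalyl diphosphate synthase, d3 (Zm00001d045563), the cytochrome P450 88A1 that oxidises ent-kaurenoic acid, Dwarf1 (Zm00001d039634), the gibberellin 3-oxidase that makes the active hormone, and d9 (Zm00001d013465), a DELLA protein. All 4 genes passed the filter for testing, as did 26792 genes in all.

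Poly-A RNA from maize stems was sequenced in 18 libraries, 2 for each of 3 hybrids at each of 3 stages. The hybrids, named for their plant height, were high (Dan 598xES40), middle (Dan 598xCML444) and low (Dan 598xFAPW), so all had the parent Dan 598 in common and each height class was a single hybrid. The stages were jointing, when the stem starts to elongate, big flare, a late whorl stage, and tasseling, when the tassel emerges. Nothing in the labels tells whether a pair of libraries stands for separate plants. The p-values therefore reflect how far these libraries differ, a spread that may be technical.

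Values are FPKM, fragments scaled by transcript length and by library size. Changes are on the log2(FPKM + 1) scale, given with their SE, and were tested with limma on all 18 libraries, with two-sided p-values adjusted by Benjamini-Hochberg across the 26792 genes and a threshold of 0.05. Between 20758 and 22708 genes reached 1 FPKM in a library, and the log2 values of the 2 libraries of a group correlated at 0.9 to 0.941 across genes, which are not independent replicates. Absolute depth is unknown, and relative depth spanned 0.418 to 1.0. It went partly with stage, at 0.451 to 0.959 in jointing, 0.418 to 0.611 in big flare and 0.607 to 1.0 in tasseling libraries. The part of depth in the stage changes of genes near 0 was not tested. Summed levels of chlorophyll a-b binding and Rubisco small chain genes were 2000 to 9150 FPKM, so every library held RNA of green tissue. In bulk stem, fewer cells that express a gene and less RNA of it per cell cannot be told apart.

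Of the 4 genes, Dwarf1 was the one whose level moved with stage beyond the test's threshold, and none passed between hybrids. Both Dwarf1 calls against jointing were lost under other settings or without single libraries, and the d3 change for tasseling against jointing passed under 2 other scalings. Dwarf1 rose at big flare, when it averaged 16.6 ± 17.6 FPKM, against 2.11 ± 2.64 FPKM at jointing (SD, n = 6 each). In the same step 2 of 5 tested gibberellin 2-oxidase genes, whose enzymes inactivate the hormone, fell, 1 of them chosen after its values were seen. Across all 41 other pathway genes tested, 3 rose and 6 fell, beside 7.29% and 5.06% of all genes. Of the 3, 1 passed the filter only through big flare libraries, and the falls included genes of perception and of response. The DELLA gene d9 was abundant and even, and d3 differed more between the libraries of one hybrid than between hybrids. The plot of FPKM by library shows all 72 values.

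**Figure D1:**
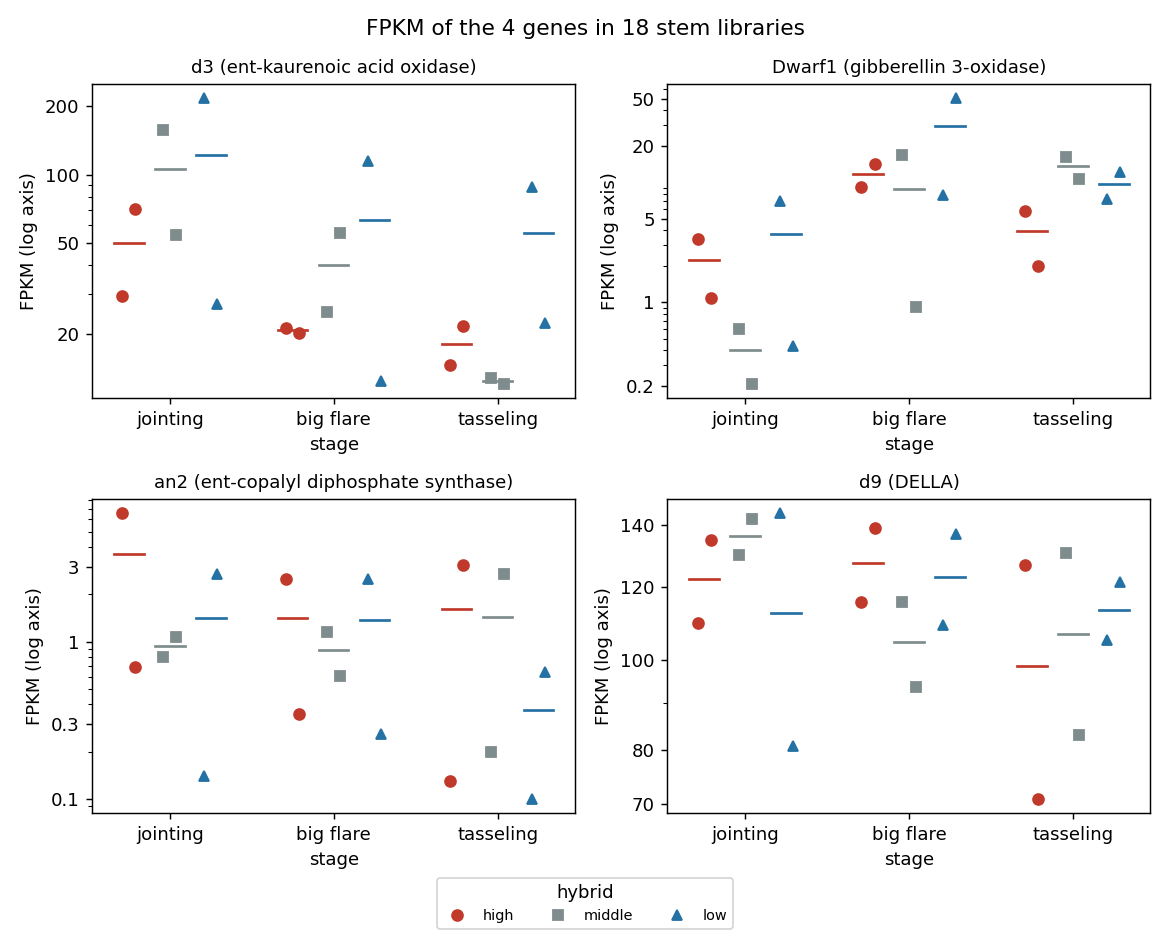
FPKM of d3, Dwarf1, an2 and d9 on log axes in the 18 libraries, by stage; circles, squares and triangles are libraries of the high, middle and low hybrid and each bar is the mean of 2 libraries. The d9 panel spans 70.8 to 144 FPKM, whereas Dwarf1 spans 0.21 to 50.7 FPKM, and the low hybrid's d3 libraries lie far apart at every stage.

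The first committed step of the pathway is the cyclization by an ent-copalyl diphosphate synthase. Maize has an1, known for gibberellin synthesis, and an2, known mainly for the diterpenoid defence compounds called kauralexins. At jointing an2 had 6.56 and 0.69 FPKM in high libraries, 0.80 and 1.08 in middle libraries and 0.14 and 2.69 in low libraries. At big flare an2 had 2.50 and 0.35 FPKM in high libraries, 1.16 and 0.61 in middle libraries and 2.51 and 0.26 in low libraries. At tasseling an2 had 0.13 and 3.08 FPKM in high libraries, 0.20 and 2.68 in middle libraries and 0.10 and 0.64 in low libraries. The gene was thus near the limit of measurement, at 1 FPKM or more in 8 of 18 libraries, and libraries of every hybrid and stage overlapped. All 8 neighbouring pairs in the order of the 9 group means overlapped, from 3.62 ± 4.15 FPKM in high jointing down to 0.37 ± 0.38 FPKM in low tasseling (SD, n = 2 each). The an2 change was 0.51 ± 0.51 for high against low (limma adjusted p = 0.62, 95% interval -0.60 to 1.62) and -0.41 ± 0.51 for tasseling against jointing (limma adjusted p = 0.59, 95% interval -1.52 to 0.70). At such levels a change of this size was not detectable here.

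The other cyclase, an1 (Zm00001d032961, shown because it carries out the same step and chosen after its values were seen), was present in every library. It averaged 7.53 ± 4.50 FPKM at jointing, 7.71 ± 2.22 at big flare and 6.43 ± 3.77 at tasseling (SD, n = 6 each). Per transcript length an1 was thus above an2, which averaged 1.99, 1.23 and 1.14 FPKM at the same stages. The diterpenoid defence list held 2 genes. One of them, Zm00001d052969, named as an ent-isokaurene C2-hydroxylase-like protein, reached 2.25 to 7.99 FPKM in the 6 high libraries, while its values in the 6 middle and the 6 low libraries were all listed as 0. It passed the filter for testing only through the high libraries, so no p-value is read from it. No fold is given against hybrids listed at 0. Zm00001d052969 too was chosen after its values were seen. The other gene, Zm00001d024512, named syn-copalyl diphosphate synthase-like, had 3.07 to 7.28 FPKM over the 18 libraries. Its change was -0.19 ± 0.20 for high against low (limma adjusted p = 0.65). For high against middle it was 0.09 ± 0.20 (limma adjusted p = 0.92).

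The d3 enzyme acts at the last membrane-bound steps, and recessive d3 mutants of maize are dwarfs. At jointing d3 had 29.4 and 70.3 FPKM in high libraries, 157 and 54.0 in middle libraries and 217 and 26.9 in low libraries. At big flare d3 had 21.1 and 20.2 FPKM in high libraries, 24.8 and 55.2 in middle libraries and 114 and 12.4 in low libraries. At tasseling d3 had 14.5 and 21.5 FPKM in high libraries, 12.8 and 12.0 in middle libraries and 88.4 and 22.2 in low libraries. The highest value at each stage was a low hybrid library, but the lowest values at jointing and at big flare were low hybrid libraries too, so the hybrids overlapped. By stage d3 averaged 92.4 ± 77.3 FPKM at jointing, 41.3 ± 38.7 at big flare and 28.6 ± 29.6 at tasseling (SD, n = 6 each), and the stages overlapped. For tasseling against jointing the d3 change was -1.63 ± 0.61 (limma adjusted p = 0.063, 95% interval -2.96 to -0.30), which did not pass. It passed with median-of-ratios scaling (-1.74, limma adjusted p = 0.048) and with quantile normalization (-1.82, limma adjusted p = 0.044). The change was -1.13 ± 0.61 for big flare against jointing (limma adjusted p = 0.25) and -0.50 ± 0.61 for tasseling against big flare (limma adjusted p = 0.55). The tasseling change also passed without any one of low jointing replicate 2, low big flare replicate 1, low big flare replicate 2 or low tasseling replicate 1, with adjusted p down to 0.02.

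Between hybrids d3 averaged 29.5 FPKM in the high, 52.6 in the middle and 80.2 in the low hybrid, and no pair of hybrids passed the test. The change was -0.96 for high against low (limma adjusted p = 0.4, 95% interval -2.29 to 0.37). In the order of the 9 group means, 6 of 8 neighbouring pairs overlapped, from 122 ± 134 FPKM in low jointing to 12.4 ± 0.516 in middle tasseling (SD, n = 2 each). The pairs that did not overlap were middle big flare above high big flare, and high tasseling above middle tasseling.

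In the low hybrid the d3 levels differed by replicate number. Replicate 1 exceeded replicate 2 in d3 by 2.97 log2 units at jointing, 3.11 at big flare and 1.94 at tasseling. Of all genes tested, 15 (0.056%) were at least 1.94 log2 units higher in replicate 1 at all 3 stages of the low hybrid, and 0 were as much higher in replicate 2. The same count was 2 and 4 genes in the high hybrid and 8 and 1 in the middle hybrid. The labels do not say that a replicate number links libraries across stages. With only its 3 replicate 1 libraries the d3 change for high against low was -2.30 and for middle against low -1.85. With only its 3 replicate 2 libraries these were 0.37 and 0.82. The low libraries were split after the d3 values were seen, and each low group is then 1 library, so the values are descriptions and no test is read from them. The libraries also differed in marker sums. At jointing the 35 defence genes summed to 1290 FPKM in low replicate 1 and 555 in low replicate 2. Their sums were 1010 in replicate 1 and 74.9 in replicate 2 at the big flare stage. In tasseling libraries they were 3240 and 1980, again with replicate 1 the higher. At jointing the chlorophyll a-b binding and Rubisco genes summed to 2620 FPKM in low replicate 1 and 9150 in low replicate 2. The secondary wall and xylem genes summed to 812 and 2720 there. At big flare the green tissue sums were 2000 and 2920 and the wall and xylem sums 832 and 215. At tasseling the green tissue sums were 3460 and 2960 and the wall and xylem sums 424 and 319. Neither of these lists thus kept its direction over the stages. The part of these differences in d3 was not tested.

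**Figure D2:**
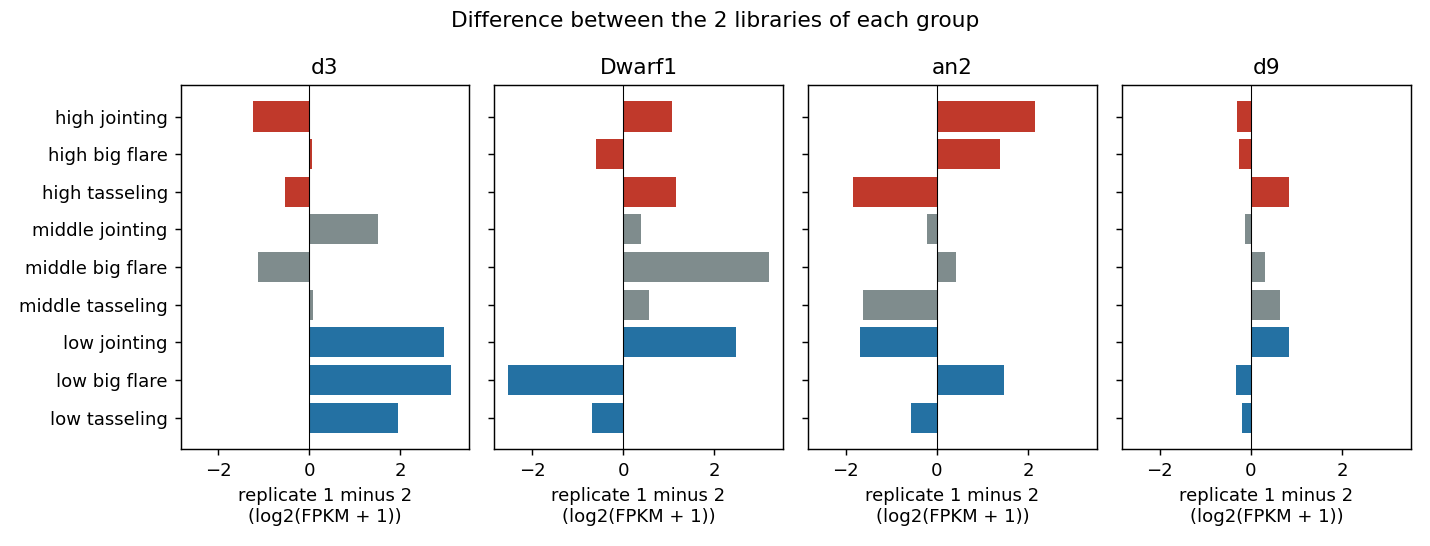
Replicate 1 minus replicate 2 of log2(FPKM + 1) in each of the 9 groups, for d3, Dwarf1, an2 and d9; bars are coloured by hybrid, with high at the top and low at the bottom. The low hybrid bars of d3 reach 2.97, 3.11 and 1.94, and no d9 bar passes 0.83.

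The spread between libraries was itself wide for 3 of the 4 genes. The mean absolute difference between the 2 libraries of a group was 1.40 log2 units for d3, 1.41 for Dwarf1 and 1.27 for an2, at the 97.2, 97.3 and 96.1 percentile of all genes tested. Genes of the same mean level, within 0.5 log2 units, had median differences of 0.37, 0.50 and 0.58. For d9 the mean absolute difference was 0.42, at the 42.6 percentile, against a median of 0.41 among genes of its level. Libraries of a group differed more than 2-fold in 6 of 9 groups for d3, 6 for Dwarf1, 7 for an2 and 0 for d9.

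Dwarf1 adds the hydroxyl group that makes gibberellin active, and recessive d1 mutants of maize are classic gibberellin-responsive dwarfs. At jointing Dwarf1 had 3.39 and 1.10 FPKM in high libraries, 0.60 and 0.21 in middle libraries and 6.95 and 0.43 in low libraries. At big flare Dwarf1 had 9.15 and 14.3 FPKM in high libraries, 16.8 and 0.92 in middle libraries and 7.92 and 50.7 in low libraries. At tasseling Dwarf1 had 5.79 and 2.03 FPKM in high libraries, 16.5 and 10.8 in middle libraries and 7.30 and 12.3 in low libraries. Jointing libraries were low, 3 of 6 below 1 FPKM, while 5 of 6 big flare libraries and 6 of 6 tasseling libraries reached 1 FPKM. The stages still overlapped, with middle big flare replicate 2 at 0.92 FPKM and low jointing replicate 1 at 6.95 FPKM. Dwarf1 rose by 2.26 ± 0.61 log2 units at big flare relative to jointing (limma adjusted p = 0.032, 95% interval 0.94 to 3.58). It was also higher at tasseling than at jointing, by 1.86 ± 0.61 (limma adjusted p = 0.036, 95% interval 0.54 to 3.18), and the change from big flare was -0.40 ± 0.61 (limma adjusted p = 0.64). Dwarf1 was thus 1 of the 4 genes called for big flare against jointing, where 12.4% of all genes tested were called (7.29% higher). For tasseling against jointing it was again 1 of 4, where 29.9% of genes were called (18.8% higher). For tasseling against big flare 0 of 4 were called by limma, with 0 at an unadjusted p under 0.05, where 41.6% of genes were called.

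Both Dwarf1 calls hung on single libraries. The big flare call was lost, with adjusted p up to 0.096, without any one of jointing libraries high 2, middle 1, middle 2 and low 2 or of big flare libraries high 1, high 2, middle 1 and low 2. The tasseling call was lost, with adjusted p up to 0.1, without any one of those same jointing libraries or of tasseling libraries high 1, middle 1, middle 2, low 1 and low 2. The change kept its sign in each of these fits, at 1.72 to 2.80 for big flare and 1.45 to 2.27 for tasseling. The big flare call was also lost when only the libraries compared were fitted (adjusted p = 0.08), and the tasseling call without a filter on low values (adjusted p = 0.054).

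In all 3 hybrids the Dwarf1 means were higher at big flare than at jointing. Within a hybrid, the change for big flare against jointing was 2.04 in the high, 2.07 in the middle and 2.67 in the low hybrid. For tasseling against jointing the change was 0.58 in the high, 3.36 in the middle and 1.64 in the low hybrid. Values within a hybrid rest on 2 libraries a side, and 0 of 72 tests of the 4 genes within a hybrid or within a stage passed in limma, with 3 at an unadjusted p under 0.05. Of all genes tested, high against low, middle against low and high against middle called 2.34%, 1.89% and 1.24% at jointing. At big flare they called 2.91%, 2.41% and 1.61%, and at tasseling 5.45%, 2.55% and 1.21%. Big flare against jointing called 0.131%, 0.493% and 0.332% of genes in the high, middle and low hybrid, tasseling against big flare 19.9%, 14.5% and 10.5%, and tasseling against jointing 3.79%, 9.52% and 5.07%. The test of whether stage changes differed between hybrids called 0 of the 4 genes, against 0.0560% of all genes tested. Its limma adjusted p was 1 for each, and its unadjusted p was 0.69 for d3, 0.33 for Dwarf1, 0.91 for an2 and 0.69 for d9. In the order of the 9 group means of Dwarf1, from 29.3 ± 30.2 FPKM in low big flare to 0.405 ± 0.276 in middle jointing (SD, n = 2 each), 7 of 8 neighbouring pairs overlapped.

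Some markers of other tissues moved in the same step. The summed level of the 47 MADS-box and agamous-like genes, many of which act in inflorescences, was 768 to 1120 FPKM in big flare libraries, against 396 to 530 in jointing libraries. At big flare 12 of the 25 tested of them rose, beside 7.29% of all genes higher, and 12 of the 47 were listed at 0 in all big flare libraries. The summed level of the 5 knotted-type homeobox genes, which mark meristems, was 297 to 379 FPKM at big flare, against 190 to 264 at jointing, with 2 of 5 higher, beside the same share, and none at 0. At tasseling the 2 sums were 463 to 741 and 103 to 247 FPKM. The 17 green tissue genes summed to 2000 to 4220 FPKM at big flare, against 2620 to 9150 at jointing, with none at 0. Of 16 tested, 0 were higher and 1 lower, beside 7.29% and 5.06% of all genes. Their median change was -0.68, beside 0.07 over all genes. The 20 secondary wall and xylem genes summed to 215 to 929 FPKM at big flare, against 789 to 2720 at jointing, with 2 at 0 in all big flare libraries. Of 15 tested, 1 was higher and 2 lower, beside 5.06% of all genes lower, and their median change was -0.78. The 10 cyclin and proliferating cell nuclear antigen genes, which mark dividing cells, summed to 15 to 27.1 FPKM at big flare. At jointing their sum was 15.1 to 33.1 FPKM, and of 9 tested 1 was higher and 0 lower at big flare. The 35 defence genes summed to 74.9 to 1010 FPKM at big flare, against 281 to 1290 at jointing. Of 20 tested, 0 were higher and 0 lower. The part of these markers in the Dwarf1 change was not tested.

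Between hybrids Dwarf1 averaged 5.96 FPKM in the high, 7.63 in the middle and 14.3 in the low hybrid, a change of -0.90 ± 0.61 for middle against low (limma adjusted p = 0.49, 95% interval -2.22 to 0.42). For high against low, 0 of the 4 genes were called by limma, with 0 at an unadjusted p under 0.05, where 9.21% of all genes were called. For middle against low it was likewise 0 of 4, with 0 at an unadjusted p under 0.05, beside 6.93% of all genes. For high against middle it was 0 of 4, with 0 at an unadjusted p under 0.05, beside 4.44% of all genes. No member had 6 libraries of one hybrid apart from 6 of another, a split seen in 4.52% of genes for high against low, 3.05% for middle against low and 2.29% for high against middle. A p above the threshold does not show equal levels, since the 95% intervals of d3 and Dwarf1 span more than 2 log2 units.

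**Figure D3:**
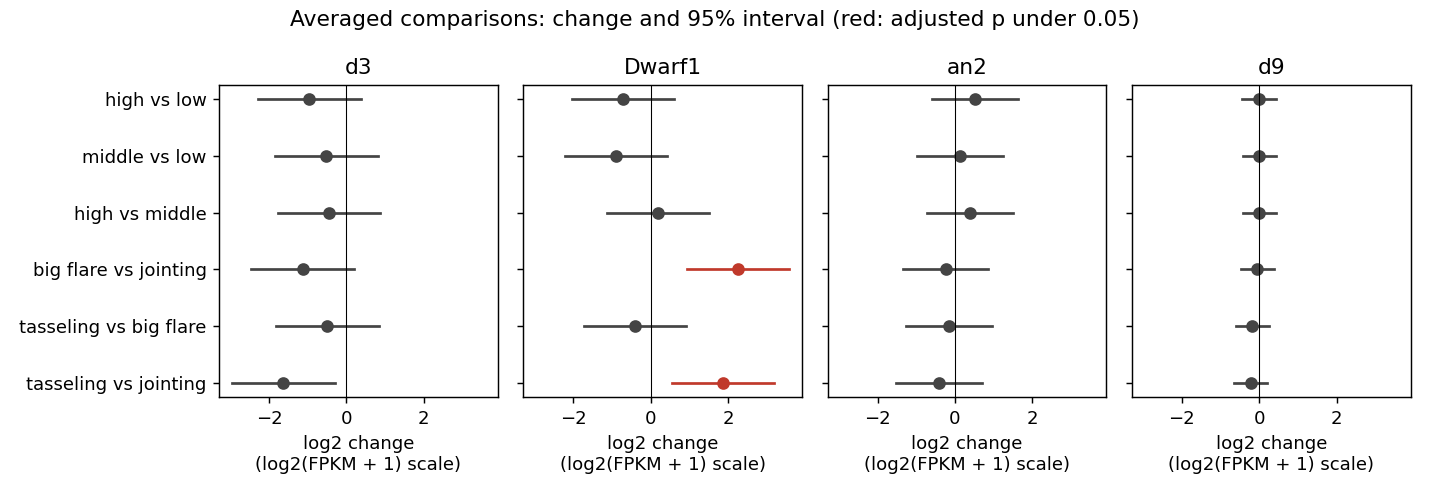
Log2 change with its 95% interval for d3, Dwarf1, an2 and d9 in the 6 averaged comparisons, 6 libraries a side, on the log2(FPKM + 1) scale; red marks an adjusted p under 0.05. The 2 red points are Dwarf1 at 2.26 for big flare and 1.86 for tasseling against jointing, and the d9 intervals are the narrowest.

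DELLA proteins act at the other end of the pathway, and dominant D8 and D9 alleles, whose proteins resist degradation, dwarf the plant. At jointing d9 had 110 and 135 FPKM in high libraries, 130 and 142 in middle libraries and 144 and 80.9 in low libraries. At big flare d9 had 116 and 139 FPKM in high libraries, 116 and 93.6 in middle libraries and 109 and 137 in low libraries. At tasseling d9 had 127 and 70.8 FPKM in high libraries, 131 and 83.1 in middle libraries and 105 and 122 in low libraries. Every library held d9 at high level, the highest 2.04 times the lowest, and groups overlapped throughout. The corresponding ratio was 18 for d3, 65.6 for an2 and 241 for Dwarf1. The mean was 116 FPKM in each of the 3 hybrids, with a change of -0.01 ± 0.20 for high against low (limma adjusted p = 0.99, 95% interval -0.44 to 0.42). By stage d9 averaged 124 ± 24.3 FPKM at jointing, 118 ± 17.2 at big flare and 106 ± 24.7 at tasseling (SD, n = 6 each). For tasseling against jointing its change was -0.22 ± 0.20 (limma adjusted p = 0.42, 95% interval -0.65 to 0.20). These are transcripts, and DELLA protein was not measured.

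Besides d9, 4 genes carry the DELLA orthology entry in the deposited table, and 3 of them were tested. One is d8 (Zm00001d033680, chosen after its values were seen), which lay between 69.0 and 186 FPKM. The ratio of d9 to d8 was 0.576 to 1.98 with a median of 0.971, and d9 was the higher of the pair in 9 of 18 libraries. Both genes are close copies whose reads can be split by the counting, so the level of each is uncertain. d8 averaged 146 ± 30.2 FPKM at tasseling, against 95.3 ± 22.1 at big flare (SD, n = 6 each), and rose by 0.61 ± 0.21 (limma adjusted p = 0.033). That call was lost with quantile normalization (adjusted p = 0.077) and without any one of big flare libraries high 1, high 2, middle 1 and low 2 or tasseling libraries high 1, middle 1 and low 1 (adjusted p up to 0.1). The d9 change in the same step was -0.18 ± 0.20 (limma adjusted p = 0.51), and whether the changes of d8 and d9 differ was not tested. Another, Zm00001d009646, named DELLA protein GAI-like and also chosen after its values were seen, reached 1 FPKM in 3 of 18 libraries, all of them at big flare. It averaged 0.188 ± 0.229 FPKM at jointing, 1.74 ± 1.66 at big flare and 0.26 ± 0.28 at tasseling (SD, n = 6 each). It passed the filter for testing only through big flare libraries, so no test is read from its higher level there. Zm00001d044065, named SLN1-like, had 6.23 to 14.28 FPKM and changed by 0.22 ± 0.19 for big flare against jointing (limma adjusted p = 0.48) and by -0.46 ± 0.19 for tasseling against big flare (limma adjusted p = 0.067). Zm00001d042472, at 0.27 FPKM or less, was not tested.

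The rest of the pathway was read from lists made by gene name, with 55 genes besides the 4, of which 41 were tested. For big flare against jointing 3 rose and 6 fell, with a median change of -0.11 beside 0.07 over all genes tested, of which 7.29% were higher and 5.06% lower. For tasseling against big flare 17 rose and 5 fell, and for tasseling against jointing 10 rose and 3 fell, with medians of 0.43 and 0.03 beside 0.01 and 0.08. Over all genes 22.4% were higher and 19.2% lower for tasseling against big flare, and 18.8% higher and 11.1% lower for tasseling against jointing. The list counts hold genes that passed the filter only through the stage where they are high. Zm00001d009646, through big flare libraries, is among the 3 that rose there and the 5 that fell at tasseling. Zm00001d001852, through 2 tasseling libraries, is among those that rose at tasseling. No test is read from either gene. Between hybrids 2 were higher and 1 lower in high against low (all genes 3.58% higher and 5.63% lower), and 3 passed in middle against low, each of them higher (all genes 2.62% higher and 4.31% lower). In high against middle 0 of 41 passed in limma, with 3 at an unadjusted p under 0.05. In the lists 24 genes passed in some averaged comparison, a count that serves only the rule for named genes. The share of all genes that passed in some averaged comparison was not worked out, but tasseling against big flare alone called 41.6%. The 12 list genes with the smallest adjusted p are among those named below.

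No early synthesis gene passed in the main fit in any of the 6 averaged comparisons, which called 4.44% to 41.6% of all genes. Besides d3 and an2, 3 of 7 were tested. Of these, 1 had an unadjusted p under 0.05 in limma for tasseling against big flare and 1 for tasseling against jointing. Of the late synthesis list 5 of 6 were tested besides Dwarf1, and for big flare against jointing 0 passed in limma, with 0 at an unadjusted p under 0.05. One of them, Zm00001d029744, rose by 2.79 ± 0.59 for tasseling against big flare (limma adjusted p = 0.0026), with 45.2 ± 23.2 FPKM at tasseling and 5.36 ± 3.59 at big flare (SD, n = 6 each). Its name is gibberellin 20 oxidase 2, but its orthology entry in the deposited table is flavonol synthase, another enzyme of the same oxygenase family.

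In the step in which Dwarf1 rose, 2 of the 5 tested inactivation genes fell, beside 5.06% of all genes lower. The 2-oxidase gene Zm00001d038695 had 0.50 and 0.23 FPKM at big flare in high libraries, 0.40 and 1.76 in middle libraries and 1.29 and 0.25 in low libraries. At jointing it had 21.9 and 6.34 FPKM in high libraries, 7.68 and 11.3 in middle libraries and 19.8 and 6.62 in low libraries. Jointing and big flare did not overlap, as for 4.96% of all genes tested, the highest big flare library lying at 1.76 and the lowest jointing library at 6.34 FPKM. It fell by 2.85 log2 units at big flare (SE 0.38, limma adjusted p = 0.0014), and was higher again at tasseling than at big flare by 1.36 ± 0.38 (limma adjusted p = 0.012). At tasseling it stayed below jointing, at -1.49 ± 0.38 (limma adjusted p = 0.011).

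A second 2-oxidase gene, Zm00001d037724 (outside the rule for named genes, chosen after its values were seen), had 0 to 1.22 FPKM at big flare with a median of 0.51, against 2.24 to 38.2 FPKM at jointing with a median of 13.1. Its jointing and big flare libraries did not overlap either, as for 4.96% of all genes tested, and 2 big flare libraries were listed at 0. It fell by 3.03 log2 units (SE 0.59, limma adjusted p = 0.008). At tasseling it had 0.61 to 16.8 FPKM. Both 2-oxidase calls at big flare held when any one library was left out, with changes of -3.12 to -2.57 for Zm00001d038695 and -3.57 to -2.49 for Zm00001d037724. Some of the tissue markers given beside Dwarf1 moved in this step too, and their part was not tested.

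**Figure D4:**
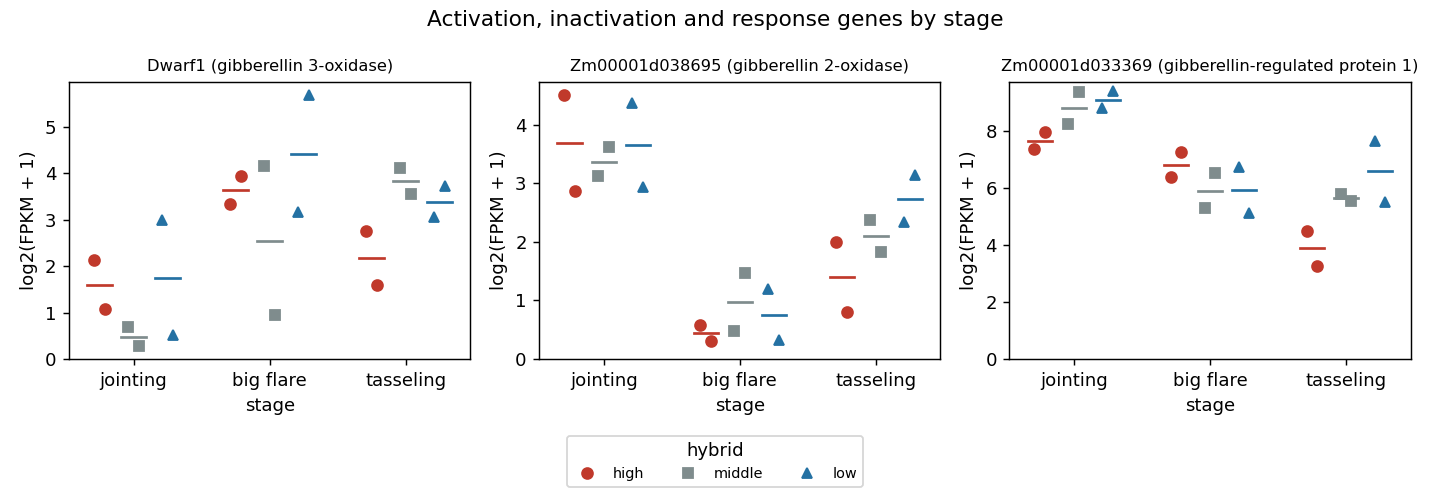
Log2(FPKM + 1) of Dwarf1, the 2-oxidase gene Zm00001d038695 and the gibberellin-regulated protein 1 gene Zm00001d033369 by stage; symbols are libraries of the high, middle and low hybrid and bars are means of 2 libraries. Dwarf1 lies higher at big flare than at jointing in mean, and the 2-oxidase gene lies at 1.76 FPKM or less in all 6 big flare libraries.

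Among perception and signalling genes 22 of 23 were tested besides d9. For big flare against jointing 2 rose and 2 fell, beside 7.29% and 5.06% of all genes. For tasseling against big flare 12 rose and 4 fell, beside 22.4% and 19.2% of all genes. For tasseling against jointing 8 rose and 1 fell, beside 18.8% and 11.1%. Zm00001d009646, from which no test is read, is among the 2 that rose at big flare and the 4 that fell after it. Of the 16 genes named GID1, 3 carry the orthology entry of the gibberellin receptor, and most of the others carry those of other enzymes, so the list is wider than the receptor. Among the 3, the GID1-like gene Zm00001d038165 (chosen after its values were seen) fell by 1.28 log2 units at big flare (SE 0.26, limma adjusted p = 0.0093), with 14.6 ± 8.86 FPKM at big flare, against 35.2 ± 12.1 at jointing (SD, n = 6 each). It rose by 0.77 ± 0.26 for tasseling against big flare (limma adjusted p = 0.029). That call was lost with only the libraries compared (0.068) and without any one of big flare libraries middle 1, middle 2 and low 1 or tasseling libraries high 1, high 2, middle 1, middle 2 and low 1 (adjusted p up to 0.09). The third, Zm00001d007257, averaged 2.39 ± 1.42 FPKM at big flare, against 1.99 ± 2.93 at jointing (SD, n = 6 each). Its change was 0.47 ± 0.32 for big flare against jointing (limma adjusted p = 0.36) and 0.02 ± 0.32 for tasseling against big flare (limma adjusted p = 0.97). Zm00001d022326, also with the receptor entry, rose by 2.14 ± 0.35 for tasseling against big flare (limma adjusted p = 0.00044). Its change for big flare against jointing was -1.23 ± 0.35 (limma adjusted p = 0.037), a call lost without a filter (0.055), with only the libraries compared (0.054) and without any one of 13 of the 18 libraries (adjusted p up to 0.11). The other 5 were low jointing 2, middle big flare 2, low big flare 1, high tasseling 1 and high tasseling 2.

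The other named genes of this list, all named GID1L2, carry the orthology entries of other enzymes. For tasseling against jointing Zm00001d016895 rose by 2.49 ± 0.22 (limma adjusted p = 4.2e-05), Zm00001d005909 by 1.66 ± 0.23 (4e-04), Zm00001d020737 by 1.42 ± 0.19 (0.00034) and Zm00001d037288 by 1.42 ± 0.24 (0.0012). Zm00001d020732 and Zm00001d037180 rose by 1.88 ± 0.35 and 1.80 ± 0.30 for tasseling against big flare (limma adjusted p = 0.0012 and 0.00057). Zm00001d037288 was also higher by 1.04 ± 0.24 in high than in low (limma adjusted p = 0.015) and by 1.42 ± 0.24 in middle than in low (limma adjusted p = 0.0024). Zm00001d016895 was lower in high than in low, at -0.90 ± 0.22 (limma adjusted p = 0.019), a call lost without any one of high jointing 1, low jointing 1, high big flare 2, low big flare 1 and high tasseling 2 (adjusted p up to 0.064).

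Of the response list, 6 of 8 were tested. The gibberellin-regulated protein 1 gene Zm00001d033369, of a family of small cysteine-rich peptides, fell by 2.30 log2 units at big flare (SE 0.43, limma adjusted p = 0.0065). At tasseling it was below jointing by -3.14 ± 0.43 (limma adjusted p = 4e-04), with 61.8 ± 68.8 FPKM at tasseling, against 410 ± 213 at jointing (SD, n = 6 each). Zm00001d038056, named gibberellin-regulated protein 6-like, averaged 15.8 ± 16.2 FPKM at jointing, 0.157 ± 0.244 at big flare and 21.2 ± 22.7 at tasseling (SD, n = 6 each). It fell by 3.15 log2 units at big flare (SE 0.69, limma adjusted p = 0.013), where it was near the limit of measurement. For tasseling against big flare it rose by 3.72 ± 0.69 (limma adjusted p = 0.0011). The GAMYB gene Zm00001d012544, a MYB factor known from cereal aleurone and anthers, moved the other way. It rose by 1.44 ± 0.26 at big flare (limma adjusted p = 0.0056), with 7.70 ± 2.73 FPKM at big flare, against 2.53 ± 2.26 at jointing (SD, n = 6 each), and was lower at tasseling than at big flare, at -1.62 ± 0.26 (limma adjusted p = 0.00041). It was higher by 1.02 ± 0.26 in middle than in low (limma adjusted p = 0.033), a call lost with only the libraries compared (0.084) and without any one of middle jointing 1, low jointing 2, middle big flare 1, low big flare 1, middle tasseling 2 and low tasseling 1 (adjusted p up to 0.095).

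**Figure D5:**
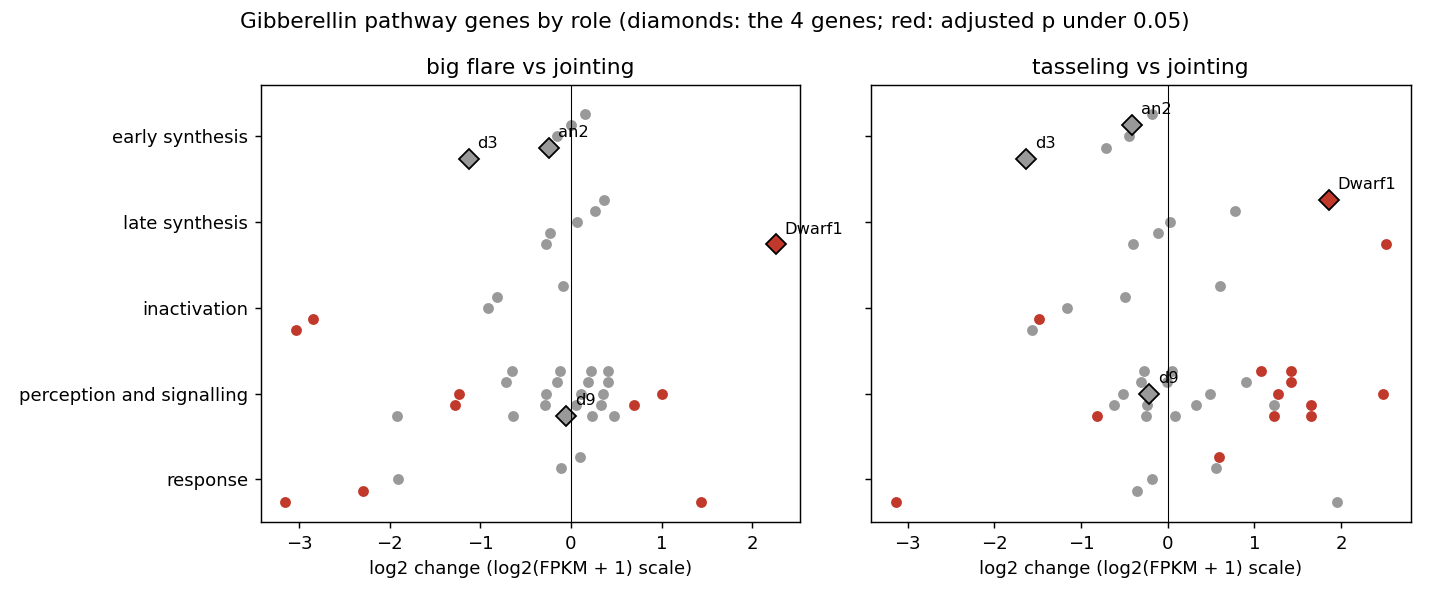
Log2 change of each tested gibberellin gene by role, for big flare against jointing and tasseling against jointing; diamonds are d3, an2, Dwarf1 and d9, circles the other 41 genes, and red marks an adjusted p under 0.05. At big flare Dwarf1 stands at 2.26, while the red inactivation genes stand at -3.03 and -2.85. No test is read from the red points of Zm00001d009646 at big flare and Zm00001d001852 at tasseling.

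Across the 9 group means, the genes with the pattern most like each of the 4 were taken from 5630 tested genes of at least 5 FPKM in mean with an informative name. For Dwarf1 these were Zm00001d007490, a probable prefoldin subunit 2 (Pearson r = 0.948), Zm00001d027268, the hexose carrier HEX6 (0.942), and Zm00001d019221, a nitrile-specifier protein 5 (0.933). For d3 they were BGI_novel_G001127, a putative DEAD-box RNA helicase (0.933), Zm00001d003275, a protein-L-isoaspartate O-methyltransferase (0.917), and Zm00001d004734, the aspartic proteinase Asp1 (0.917). For an2 they were Zm00001d042142, a probable inactive purple acid phosphatase (0.896), Zm00001d028599, a putative laccase (0.846), and Zm00001d053807, porphobilinogen deaminase (0.844). For d9 they were Zm00001d048325, a ribosomal protein L32 gene (0.9), Zm00001d009118, a universal stress protein (0.888), and Zm00001d007255, an NRT1/PTR family protein (0.869). No list gene of the pathway was among them. With 9 points and these many candidates, the values of r are a description of likeness, and over the 18 libraries they were 0.20 to 0.88.

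The 4 genes did not share a common pattern among themselves. Across the 18 libraries d3 and Dwarf1 had r = -0.46, and over the 9 group means -0.62. For an2 and d9 r was -0.59 over libraries but 0.15 over group means. These values are descriptions over libraries that share stages, hybrids and depth.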

How the data were processed

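Stem RNA of 3 hybrids at 3 stages was sequenced in 18 libraries. The authors deposited FPKM per gene and library, for 34474 genes; per the submitters' processing notes the build was B73 RefGen_v4 and the tools DESeq 1.28.0, Cuffdiff, Cufflinks 2.2.1 and TopHat2, whose roles are not given. FPKM divides by library size, so abundant genes shift the others; the 10 most abundant held 5.38% to 10.2% of the sum. FPKM holds no counts. Relative depth came from ratios of low values of 3409 genes, and 93.1% of 306 ordered library pairs matched the fitted depths to within 0.05 log2 units.

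Genes at 1 FPKM or more in at least 2 libraries (26792, leaving out 7682) were fitted on log2(FPKM + 1) with limma 3.58.1 (R 4.3.3), which understates changes of low genes, with 9 group means, 9 residual degrees of freedom and a mean-variance trend. Hybrids were averaged over 3 stages and stages over 3 hybrids, with equal weight. The interaction was a moderated F test.

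The 4 genes and all lists were chosen with earlier results of these data known. The rule for named genes took the 4, then up to 12 list genes by smallest adjusted p, then the 3 most like each. Lists were made from gene names in the deposited table or a RefSeq table (assembly Zm-B73-REFERENCE-NAM-5.0, names only), and kaurene and copalyl synthases were taken with or without the prefix ent-. Alternatives were other scalings, filters, pseudocounts, the replicate block and leaving out each library. No coordinates or sequences are given, since no genome of the authors' build was used here.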

Additional observations from a re-analysis of the deposited data

Results flagged for a closer look

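For d3, high against middle ran in opposite directions at big flare and tasseling, with no overlap of the 2 libraries a side at either stage. The change was -0.81 at big flare, with 21.1 and 20.2 FPKM in high libraries and 24.8 and 55.2 in middle libraries. It was 0.48 at tasseling, with 14.5 and 21.5 FPKM in high libraries and 12.8 and 12.0 in middle libraries. For Dwarf1 the same comparison ran in opposite directions at jointing and tasseling. The change was 1.13 at jointing, with 3.39 and 1.10 FPKM in high libraries and 0.60 and 0.21 in middle libraries, and -1.66 at tasseling, with 5.79 and 2.03 FPKM in high libraries and 16.5 and 10.8 in middle libraries. Of all genes tested, high and middle libraries did not overlap for 32.7% at jointing, 34.7% at big flare and 35.7% at tasseling. Opposite directions without overlap were seen for 3.26% of genes at big flare and tasseling, for 2.87% at jointing and tasseling, and for 7.77% at any pair of stages. The difference between these stages was not itself tested for either gene. The interaction over all hybrids and stages had an adjusted p of 1 in limma for both.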

How the results depend on the processing

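Limits: each group had 2 libraries, depth is unknown in absolute terms, and an2 was mostly below 1 FPKM.

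Dwarf1 stayed higher at tasseling than at jointing without a filter on low values, at 1.86, but its adjusted p was 0.054; its big flare change of 2.26 had an adjusted p of 0.08 when only the libraries compared were fitted. d3 for tasseling against jointing passed with median-of-ratios scaling (-1.74, adjusted p = 0.048) and quantile normalization (-1.82, 0.044). The d9 changes near 0 turned sign with median-of-ratios scaling, at 0.09 for high against low, 0.06 for middle against low and 0.02 for high against middle, and with quantile normalization at 0.01 for high against middle. In fits added after the data were seen, d3 was 0.37 for high against low and 0.82 for middle against low with low replicate 2 alone, and -2.3 and -1.85 with low replicate 1 alone. Genes called under a stricter filter (1 FPKM in 9 libraries) were 1426 for high against low, 1009 for middle against low and 561 for high against middle, against 2468, 1856 and 1190. The median of all genes was 0 with median-of-ratios scaling for high against low at tasseling, against -0.23 in the main values, and 0 for tasseling against jointing in the low hybrid, against 0.2. The cause of these shifts was not tested.

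With the replicate block no call of the 4 genes changed: Dwarf1 had an adjusted p of 0.035 for big flare and 0.038 for tasseling against jointing, and d3 had 0.054. Replicate differences correlated between groups at -0.43 to 0.29 (median -0.01), with 8 of 36 pairs over 0.1. These pairs take groups of the same hybrid together with groups of different hybrids. Whether a replicate number links libraries across the stages of a hybrid cannot be read from them and was not tested.

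Leaving out each library gave these ranges. Dwarf1 was 1.72 to 2.8 for big flare against jointing, 1.45 to 2.27 for tasseling against jointing, -0.93 to 0.14 for tasseling against big flare and -0.35 to 0.72 for high against middle. d3 was -2.12 to -1.14 for tasseling against jointing, -1.02 to 0.02 for tasseling against big flare and -1.04 to 0 for middle against low. an2 was -0.15 to 0.41 for middle against low, -0.61 to 0.12 for big flare against jointing and -0.47 to 0.14 for tasseling against big flare. d9 was -0.15 to 0.13 for high against low, -0.14 to 0.13 for middle against low, -0.14 to 0.13 for high against middle and -0.19 to 0.09 for big flare against jointing. In the low hybrid d3 was -2.55 to 0.56 for big flare and -2.26 to 0.71 for tasseling against jointing; Dwarf1 for tasseling against jointing was 0 to 1.16 in the high and 3.08 to 3.65 in the middle hybrid. Member calls within a stage or hybrid were 0 to 1, and genes called for big flare against jointing 1594 to 3977.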

Other observations

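Gibberellin-regulated protein 2 (Zm00001d013222) was among the 15 genes that were at least 1.94 log2 units higher in replicate 1 than in replicate 2 at all 3 stages of the low hybrid, as d3 was, and it was picked out after its values were seen. Its differences were 2.15 at jointing, 2.09 at big flare and 2.07 at tasseling. In the low hybrid it had 261 and 58.0 FPKM at the jointing stage, at big flare 128 and 29.3 FPKM, and at tasseling 284 and 66.6 FPKM. With d3 its log2 values had r = 0.71 over the 18 libraries, which include the low libraries by which it was picked. Over the 12 libraries of the high and middle hybrids r was 0.55, and both values describe these libraries only. The defence gene sums given beside d3 also differed between these low libraries, and their part was not tested.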
